A study of Mus musculus with 18 samples.

Results

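Macrophages grown from the marrow of mice that lack miR-146a (KO) were compared at rest with macrophages from wild-type mice (WT), over all protein-coding genes of the count table. In resting KO cells 40 of 45 mitosis genes tested were lower, against 4.27% of all genes. Of 38 antiviral genes that interferon induces, 35 were higher (16 without KO library 3), and of 20 NF-κB feedback genes, 7 were. Over all genes 5.12% were called higher, or 3.69% without KO library 3. Of 36 ribosomal protein genes 0 passed the threshold. A fit of the 6 compared libraries alone called 39 of the mitosis genes, 1 of the antiviral genes and 2 of the feedback genes. Leaving KO library 3 out of that fit gave 42, 29 and 6. The comparison took 6 of the 18 libraries of the series, 3 from each genotype, and these were chosen by their labels for genotype and treatment, with no measured value entering the choice. Counts and tests are given over 3 KO and 3 WT libraries and again without KO library 3, which leaves 2 KO and 3 WT libraries.

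WT cells carried the normal miR-146a allele, and KO cells were homozygous for an allele that lacks the miR-146a hairpin, made by gene targeting in V6.5 embryonic stem cells. Founders were backcrossed 3 times to C57BL6/J, and the labels give a mixed 129/B6 background. WT animals came from the breeding of heterozygotes. The paper kept the KO line and a further mutant line (3′F) as separate colonies and drew its WT controls from both. Which colony each WT library came from is not stated. The mice were 6 to 7 months old, with 3 per genotype, and marrow was grown for 8 to 9 days in medium with 10 ng/ml M-CSF, the growth factor that turns marrow precursors into macrophages. Resting cells then received fresh medium without lipopolysaccharide (LPS) for 16 h. WT and KO cells of the same kind that received 1 ng/ml LPS for 16 h serve below only as a scale for levels. The labels do not tie each library to a mouse of its own, so p-values measure the spread between libraries of the same group, which may be partly technical. In this design, 129-derived or C57BL6/J-derived sequence that differs between the genotypes and the loss of miR-146a cannot be told apart.

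The 6 libraries held 9147879 to 14757885 counts, and levels are given as counts per 1000000 counts of the library (CPM), not corrected for gene length. Of 21734 genes, 11357 had enough counts to be tested. miR-146a is not a protein-coding gene, so its loss could not be checked in this table. Cells of both genotypes carried macrophage markers. The summed level of the 9 markers tested ranged from 31853 to 47789 CPM in WT and from 60718 to 62742 CPM in KO, and most of it was Lyz2, the lysozyme of myeloid cells. Itgam, the CD11b integrin chain, stands on a pair of rows in the table and was left out of that list. The main row (ENSMUSG00000030786) fell from 246, 238 and 249 CPM in WT to 166, 154 and 130 CPM in KO (log2 difference -0.71 ± 0.15, adjusted p = 0.0082, and -0.61 ± 0.16, adjusted p = 0.0268 without KO library 3), and the second (ENSMUSG00000108596) stayed between 0.112 and 1.51 CPM. The libraries did not overlap on the main row.

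KO library 3 stood apart from KO libraries 1 and 2. Between KO libraries 1 and 2, 88 genes differed by more than 1 log2 unit, against 1052 and 1100 genes when KO library 3 was set beside each of them and 125 to 190 genes between the 3 WT libraries. In 3′F, the third genotype, resting library 3 also differed from its replicates, by 1425 and 1269 genes. It held 4071084 counts, the fewest of the 18 libraries, against 15896679 and 15824426 in its replicates. Its antiviral genes that interferon induces summed to 1245 CPM, beside 1273 and 998 CPM in its replicates and 21162 CPM in KO library 3. All 38 interferon-stimulated antiviral genes tested were at or above the lowest LPS-treated WT library in KO library 3, whereas 0 and 1 of them were in KO libraries 1 and 2. Of 15 genes of classical, LPS-type activation, 2 reached that level in KO library 3. Apoe, the apolipoprotein that macrophages secrete, was at 1791, 1347 and 2225 CPM in WT, 2897 and 3098 CPM in KO libraries 1 and 2 and 121 CPM in KO library 3. What set this library apart was not tested.

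miR-146a is a microRNA that NF-κB switches on in myeloid cells. It pairs with messages through its seed, bases 2 to 8 from the 5′ end, and lowers them, and its known targets include Irak1 and Traf6, the kinase and the ubiquitin ligase that carry the signal of Toll-like receptors to NF-κB. It is known as a brake on that pathway. The mature miR-146a-5p of RefSeq lies at chr11:43374435-43374456 on the minus strand of GRCm38 (mm10). Its relative miR-146b-5p, whose gene the KO allele leaves in place, lies at chr19:46342790-46342811 on the plus strand and has the same seed. Both are printed with the seed in capitals because the sites searched below are the complement of these bases.
miR-146a-5p: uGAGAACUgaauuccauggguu
miR-146b-5p: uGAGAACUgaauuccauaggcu

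The matching site in a message reads AGTTCTCA, the complement of the seed followed by A. The 3′ untranslated regions (UTRs) of the GENCODE annotation on GRCm38 hold it in Irak1, Traf6, Irak2 and Notch1, which are among the listed targets. The stretches below are printed in the sense of the message with the site in capitals. They come from the 3′ UTR of Irak1 at chrX:74015389-74015416 (minus strand), of Traf6 at chr2:101697943-101697970 (plus strand), of Irak2 at chr6:113694250-113694277 (plus strand) and of Notch1 at chr2:26459259-26459286 (minus strand).
Irak1: cagactcagaggtcaaAGTTCTCAtgct
Traf6: taccgctctggtgttgAGTTCTCAttta
Irak2: agccggtgtctccgcaAGTTCTCAagtt
Notch1: tccaagaaaataaactAGTTCTCAgagc

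Over all genes, 582 were higher and 485 lower in resting KO cells with 3 KO libraries, which makes 1067 called genes or 9.40% of those tested (5.12% higher, 4.27% lower). A gene was called where edgeR's quasi-likelihood test gave a Benjamini-Hochberg adjusted p under 0.05 over all 11357 genes. Without KO library 3 the calls came to 815 genes or 7.18%, of which 419 were higher (3.69%) and 396 lower (3.49%). Both fits called 609 genes (5.36%), 308 higher and 301 lower, and 0 genes were called in opposite directions. Of the higher calls 52.9% were also called without KO library 3, and of the lower calls 62.1%. Among the larger differences, 148 higher calls exceeded 2 log2 units with KO library 3 and 50 without it, against 58 and 43 lower calls. In 192 of the 582 higher calls, KO library 3 was more than 2 times the higher of the other KO libraries. The count also depended on the controls, with 590 genes called without WT library 1, 401 without WT library 2 and 718 without WT library 3. A fit of the 6 compared libraries alone called 380 genes, of which 31.6% were higher, against 54.5% of the calls in the fit over all 18 libraries. With KO library 3 left out, the 6-library fit called 1073 genes, of which 48.0% were higher. A test of whether the genotype difference at rest differed from that with LPS called 1 gene, Clmp (0.00881% of those tested). The median log2 difference over all genes was 0.02 with and 0.00 without KO library 3.

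**Figure D1:**
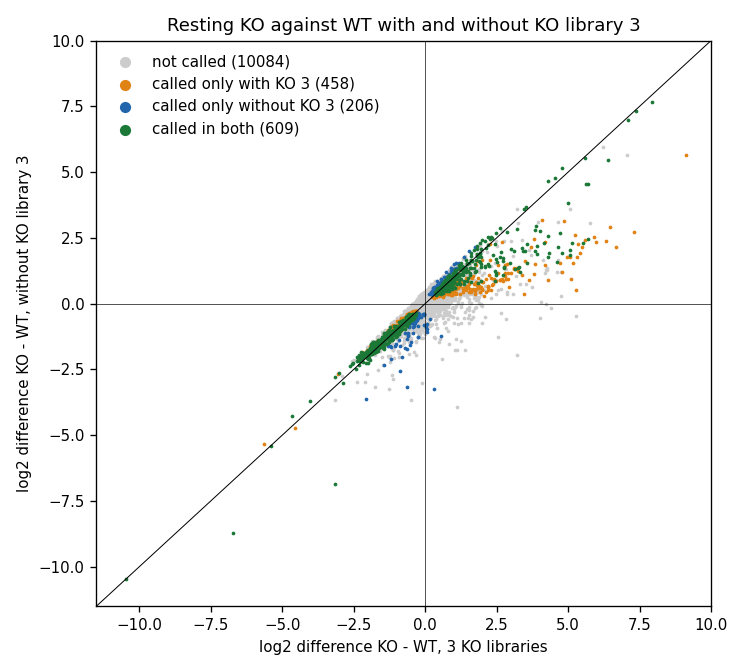
Each point is 1 of the 11357 genes tested, with its log2 difference between resting KO and WT over 3 KO libraries on the x axis and without KO library 3 on the y axis. The 609 genes called in both fits (green) lie along the diagonal, the 458 called only with KO library 3 (orange) include genes far to its right, and the 206 called only without it (blue) are fewer.

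Some of the listed miR-146a targets were called higher, but Irak1 and Traf6 were not. Of 13 listed miR-146a targets tested, 4 were higher with KO library 3 (Irak2, Irf5 and Notch1 among them) and 3 without it (Irak2, Notch1 and Relb), and 0 were lower. Over all genes 5.12% were called higher with and 3.69% without KO library 3, which is the background for each list of higher genes here. Their median log2 difference was 0.26 with and 0.36 without KO library 3, beside 0.02 and 0.00 over all genes. Without WT library 2, 0 of the 13 were called, and without WT library 1, 1 was. The fit of 6 libraries called 1 of them and the fit of 9 resting libraries 0. Once KO library 3 was left out, the 6-library fit called 5.

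Irak1, the receptor-proximal kinase, was at 46, 67.5 and 66.2 CPM in WT and 74.4, 79.7 and 54.6 CPM in KO. The libraries overlapped and the log2 difference of 0.22 ± 0.18 (adjusted p = 0.527) was not called, nor was 0.36 ± 0.18 (adjusted p = 0.267) without KO library 3. Traf6, the ubiquitin ligase downstream of it, was at 40.3, 60.4 and 52.3 CPM in WT and 62.1, 61.5 and 59.3 CPM in KO, with log2 differences of 0.26 ± 0.16 (adjusted p = 0.357) and, without KO library 3, 0.28 ± 0.18 (adjusted p = 0.405). WT library 1 was the lowest of the 6 for both genes, and the genotypes overlapped for Traf6 too. Irak2, a kinase that sustains the signal later in the response, was at 48.7, 47.2 and 56.1 CPM in WT (chr6:113638467-113695026, plus strand) and 86.5, 83.3 and 94.3 CPM in KO. All KO libraries lay above all WT libraries, and the log2 difference was 0.80 ± 0.19 (adjusted p = 0.0171), or 0.75 ± 0.21 (adjusted p = 0.0443) without KO library 3. Notch1, the cell surface receptor, was at 34.7, 37.4 and 53.2 CPM in WT (chr2:26457903-26516663, minus strand) and 68.7, 74.6 and 67.1 CPM in KO, again without overlap. Its log2 difference was 0.75 ± 0.16 (adjusted p = 0.00876) and 0.78 ± 0.18 (adjusted p = 0.0146) without KO library 3. Relb, a subunit of NF-κB, was called only without KO library 3, at 29.8, 29.1 and 34.8 CPM in WT against 58.2, 51.1 and 31.5 CPM in KO, where KO library 3 lay within the WT range.

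The wider TLR4 pathway held 6 higher and 0 lower genes among 30 tested (median log2 difference 0.30), and also 6 higher without KO library 3 (median 0.36). Irak2, Ikbke, Nfkb1 and Nfkb2 were called both ways, Myd88 and Irak3 only with KO library 3, and Traf3 and Relb only without it. Beside them, 5.12% and 3.69% of all genes were called higher. With WT library 1 or WT library 2 left out, 2 of the 30 were called, and in the fits of 6 and 9 libraries 3 and 2. Leaving KO library 3 out of the 6-library fit gave 6. Ikbke, a kinase of the interferon and NF-κB pathways, was at 100.4, 81.7 and 102 CPM in WT and 171, 148 and 222 CPM in KO, without overlap (log2 difference 0.93 ± 0.16, adjusted p = 0.0033, and 0.75 ± 0.16, adjusted p = 0.00984 without KO library 3). Nfkb1, the gene of the p105 and p50 subunits, was at 111, 111 and 122 CPM in WT and 175, 163 and 155 CPM in KO, a change of 0.52 ± 0.11 (adjusted p = 0.009), or 0.56 ± 0.12 (adjusted p = 0.0109) without KO library 3. Nfkb2, which encodes p100 and p52, changed by 0.70 ± 0.16 (adjusted p = 0.0111), and by 0.79 ± 0.16 (adjusted p = 0.00949) without KO library 3. For both subunit genes the 3 KO libraries were above the 3 WT libraries.

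The list compiled for feedback on NF-κB gave 7 higher and 0 lower calls among 20 tested. Its median log2 difference was 0.39, or 0.61 without KO library 3. Whether each member inhibits NF-κB or is induced by it was not checked here. Nfkbia, Nfkbie, Nfkbiz, Bcl3, Tnip1 and N4bp1 were called both ways, Irak3 only with KO library 3 and Socs3 only without it. Leaving out WT library 1 left 2 calls, leaving out WT library 2 left 3, and leaving out KO library 1 left 4. The fits of 6 and 9 libraries called 2 each, and the 6-library fit without KO library 3 called 6. Over all genes 5.12% (3.69% without KO library 3) were called higher. Nfkbie, an inhibitor that holds NF-κB in the cytoplasm, was at 20.8, 19.5 and 26.7 CPM in WT (chr17:45555703-45563169, plus strand) and 58.4, 51.8 and 41.7 CPM in KO. Every KO library was above every WT library, and the log2 difference was 1.19 ± 0.18 (adjusted p = 0.00155) and 1.31 ± 0.18 (adjusted p = 0.000973) without KO library 3. Nfkbiz, a nuclear IκB protein, was at 16.2, 20.6 and 23.6 CPM in WT, 66.8 and 51.5 CPM in KO libraries 1 and 2 and 22.9 CPM in KO library 3, which lay inside the WT range. N4bp1, a suppressor of NF-κB signalling, was at 42.2, 47.2 and 60.5 CPM in WT and 95.7, 90.8 and 116 CPM in KO, without overlap (log2 difference 1.01 ± 0.17, adjusted p = 0.00223, and 0.90 ± 0.17, adjusted p = 0.00647 without KO library 3).

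Toll-like receptors, which sense microbial molecules, gave 3 higher and 0 lower calls among 10 tested (Tlr1, Tlr2 and Tlr6), with a median log2 difference of 0.64, and 2 higher calls without KO library 3 (Tlr1 and Tlr2, median 0.44). Leaving out WT library 1 left 1 call, and leaving out WT library 2 or 3 left 2. Tlr2, which senses bacterial lipoproteins together with Tlr1 or Tlr6, was at 180.2, 144 and 209 CPM in WT (chr3:83836272-83841767, minus strand) and 500.3, 488 and 230.5 CPM in KO. KO libraries 1 and 2 stood well above the WT range and KO library 3 just above it. The log2 difference was 1.19 ± 0.24 (adjusted p = 0.00584), and 1.47 ± 0.17 (adjusted p = 0.000163) without KO library 3. Tlr1 was at 12, 18.1 and 20.8 CPM in WT and 33.9, 31 and 35.8 CPM in KO, also without overlap (0.99 ± 0.23, adjusted p = 0.0123, and 0.94 ± 0.25, adjusted p = 0.0298 without KO library 3).

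**Figure D2:**
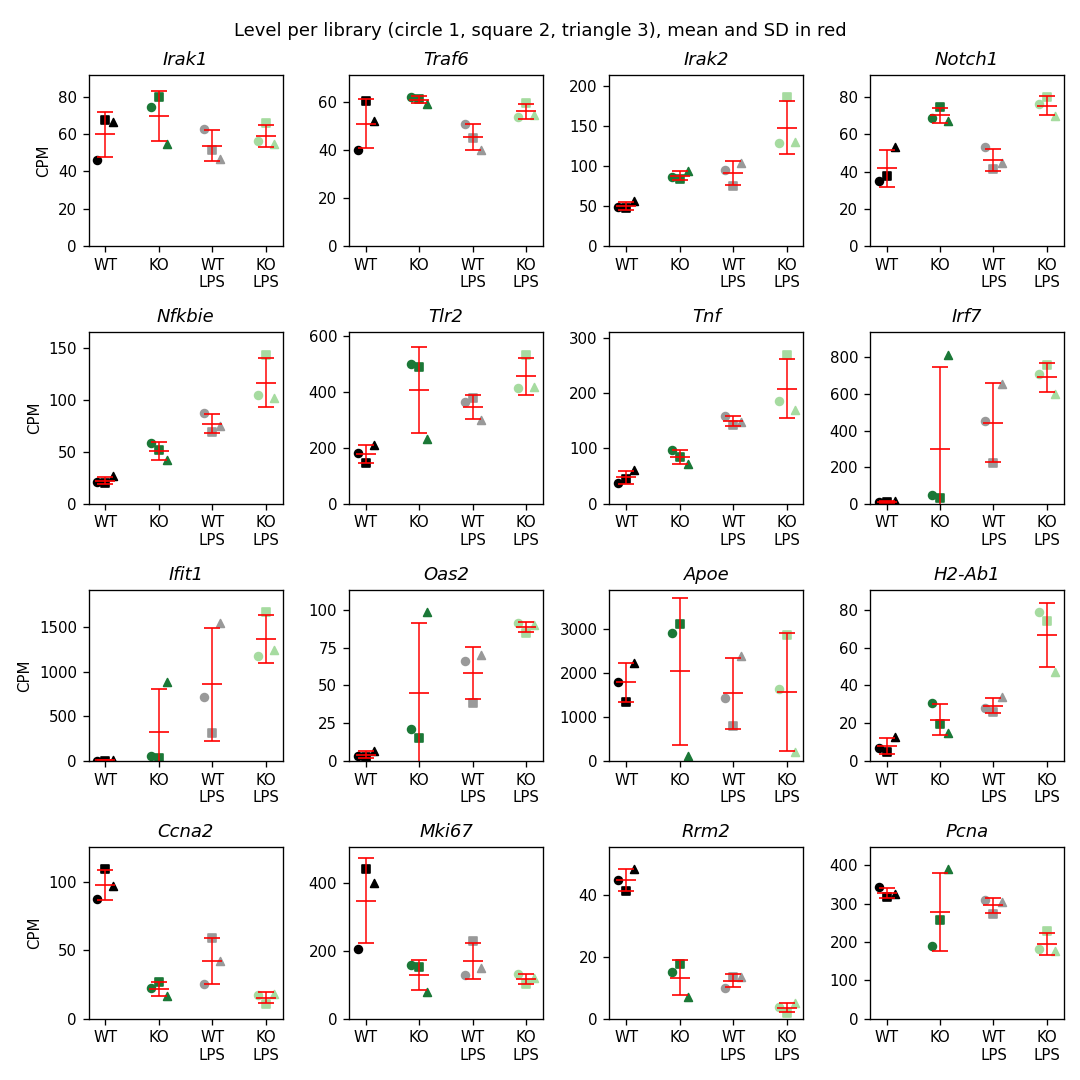
Each panel shows the CPM of 1 gene in resting WT and KO libraries and, as a scale, in LPS-treated WT and KO libraries (circle, square and triangle for libraries 1, 2 and 3, with the mean and SD of 3 libraries in red). Irak2, Notch1, Nfkbie and Tlr2 are higher and Ccna2, Mki67 and Rrm2 lower in every resting KO library, Irak1 and Traf6 overlap with WT, and in the Irf7, Ifit1 and Apoe panels KO library 3 (triangle) lies far from KO libraries 1 and 2.

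The mitotic programme was lower in all 3 KO libraries. Of 45 genes of chromosome segregation, spindle and cytokinesis tested, 40 fell and 0 rose with KO library 3 (4.27% of all genes were called lower), and the same 40 genes fell without it (3.49% of all genes). The median log2 difference was -1.92 with and -1.81 without KO library 3, against 0.02 and 0.00 over all genes, and in 44 of the 45 genes the KO and WT libraries did not overlap, as in 26.8% of all genes. The genes not called were Incenp, Spc24, Pttg1, Foxm1 and Mybl2. Leaving out any library left between 34 and 41 calls, and the fits over 6 and over 9 libraries gave 39 and 37. The 6-library fit without KO library 3 gave 42. The summed level of the list was 2052 to 2877 CPM in WT and 625 to 809.8 CPM in KO. In bulk RNA, fewer cells in mitosis and less of these messages in each cell cannot be told apart.

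Ccnb2, a cyclin that drives entry into mitosis, was at 46.4, 70.6 and 57 CPM in WT (chr9:70407692-70421547, minus strand) and 13.8, 10.7 and 19.3 CPM in KO. The 3 KO libraries lay well below the 3 WT libraries, and the log2 difference was -2.00 ± 0.29 (adjusted p = 0.00149) and -2.24 ± 0.32 (adjusted p = 0.00132) without KO library 3. Ccna2, the cyclin of S phase and G2, was at 87.5, 109 and 97.2 CPM in WT (chr3:36564865-36572150, minus strand) and 22.1, 26.8 and 16.3 CPM in KO (-2.16 ± 0.33, adjusted p = 0.00155, and -2.00 ± 0.36, adjusted p = 0.00492 without KO library 3). Top2a, the topoisomerase that untangles chromosomes, was at 274, 327 and 346 CPM in WT (chr11:98992943-99024189, minus strand) and 88.7, 91.5 and 60.5 CPM in KO. KO library 3 was the lowest for both, and no KO library overlapped with WT. Mki67, the Ki-67 proliferation marker, was at 205, 441 and 401 CPM in WT and 159, 151 and 78.8 CPM in KO, a difference of -1.42 ± 0.33 (adjusted p = 0.0127), or -1.17 ± 0.33 (adjusted p = 0.0435) without KO library 3, in which WT library 1 came nearest to the KO range. Kif11, the kinesin that separates the spindle poles, was at 71.5, 86.9 and 94 CPM in WT (chr19:37376403-37421859, plus strand) and 23.9, 24.4 and 18.1 CPM in KO (-1.92 ± 0.33, adjusted p = 0.003, and -1.8 ± 0.38, adjusted p = 0.0103 without KO library 3). The lower genes with the largest differences among those called both ways included Aspm, which is on the list, and Kif14, Pbk, Fam83d and Pimreg, which are not on it and also act in mitosis or are expressed with it. Fam83d, a spindle protein, was at 7.36, 10.2 and 7.25 CPM in WT and 1.67, 1.53 and 0.561 CPM in KO.

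Of 41 genes of DNA replication tested, 10 fell and 0 rose (median log2 difference -0.49), and 10 fell without KO library 3 (median -0.55), of which 7 were called both ways. These 7 were Pold1, Lig1, Rrm1, Rrm2, Tk1, Chaf1a and Chaf1b, which cover a replicative polymerase, a ligase, nucleotide supply and chromatin assembly. Rrm2, the regulated subunit of ribonucleotide reductase, was at 44.7, 41.3 and 48.2 CPM in WT (chr12:24708241-24714146, plus strand) and 15, 17.7 and 6.96 CPM in KO, without overlap (-1.74 ± 0.31, adjusted p = 0.00362, and -1.45 ± 0.28, adjusted p = 0.00727 without KO library 3). Rrm1, the other subunit, was at 141, 137 and 136 CPM in WT and 61, 68.1 and 69.4 CPM in KO, a narrow range within each genotype (-1.06 ± 0.16, adjusted p = 0.00155, and -1.10 ± 0.18, adjusted p = 0.00306 without KO library 3). Pcna, the sliding clamp, was at 343, 318 and 324 CPM in WT and 188, 257 and 389 CPM in KO. KO library 3 was the highest of the 6 for this gene, and Pcna was called lower only without it (-0.56 ± 0.14, adjusted p = 0.0263, against -0.24 ± 0.19, adjusted p = 0.492 with it). Genes of recombination and crosslink repair followed, with 9 lower of 22 tested (median -0.63) and 8 lower without KO library 3 (median -0.82), among them Brca1, Fancd2 and Blm. Replication calls came to 6 without WT library 2 or KO library 1, and repair calls to 4 without WT library 2 and 5 without WT library 1 or 3. The limma-voom fit with quality weights called 29 of the replication genes.

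Of 24 genes of G1 and cell cycle entry, 6 fell with KO library 3 and 5 without it, and 0 rose. They included Ccne2, E2f7 and E2f8, a cyclin and a pair of repressors of the S phase genes, and the inhibitors Cdkn2c and Cdkn2d. Leaving out WT library 1 left 3 calls, and leaving out WT library 2 or 3 left 2. The fits of 6 and 9 libraries called 3 and 1, and the 6-library fit without KO library 3 called 7. Ccnd1, the cyclin that M-CSF induces, was at 251, 272 and 253 CPM in WT and 161, 199 and 286 CPM in KO and was called only without KO library 3, the highest of the 6 libraries (-0.52 ± 0.12, adjusted p = 0.0137). Of 11 p53 target genes tested, 0 were called with or without KO library 3.

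Promoters of the mitotic genes were searched for short motifs. The whole list was counted, whether or not a gene was called, so the shares describe the list and not the KO cells. The CHR element, TTTGAA on either strand, was found in the 300 bases around the start (250 before to 50 after) of 29 of 38 mitosis genes with a RefSeq promoter, or 76.3%, against 14.5% of 8904 tested genes and 17.6% of the replication genes. CCAAT, searched separately on both strands, was found in 73.7% of the mitosis genes, 61.8% of the replication genes and 43.5% of all. The 120 bases before the start of Kif11 (chr19:37376262-37376381, plus strand, GRCm38.p6) and of Top2a (chr11:99024190-99024309, minus strand) are shown 5′ to 3′ in the direction of transcription as examples of a CHR match, in capitals.
Kif11: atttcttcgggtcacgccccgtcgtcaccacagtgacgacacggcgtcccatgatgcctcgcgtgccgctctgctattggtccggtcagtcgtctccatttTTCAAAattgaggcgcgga
Top2a: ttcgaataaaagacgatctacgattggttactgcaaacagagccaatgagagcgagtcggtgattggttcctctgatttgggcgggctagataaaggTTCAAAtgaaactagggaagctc

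**Figure D3:**
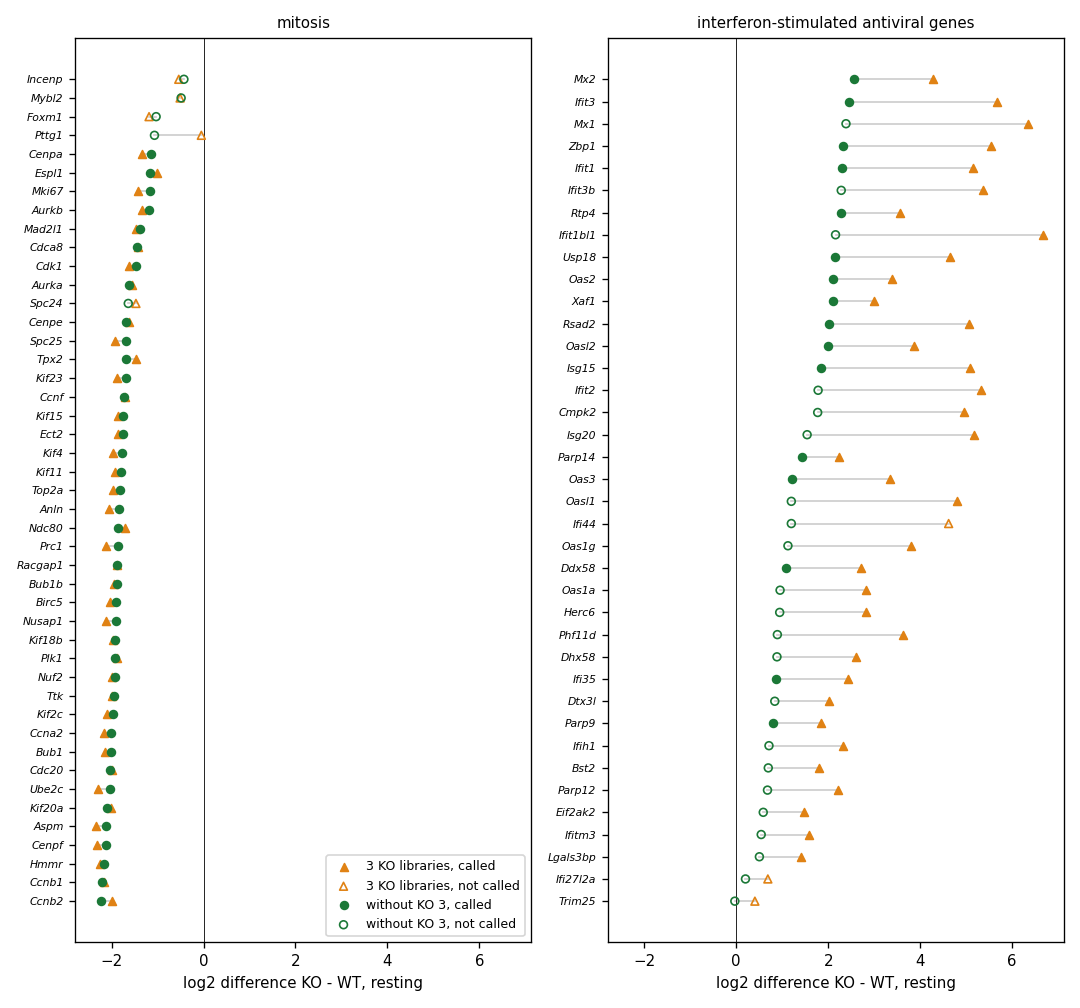
Each line is 1 gene tested from the mitosis list (left) or the list of interferon-stimulated antiviral genes (right), with the log2 difference KO minus WT on the x axis over 3 KO libraries (orange triangle) and without KO library 3 (green circle), filled where called. In the mitosis list the symbols almost coincide for most genes, near the medians of -1.92 and -1.81, and in the antiviral list they move apart, from a median of 3.48 to a median of 1.21.

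Interferon-stimulated genes were higher in KO cells, and how much higher turned on KO library 3. Of 38 antiviral genes tested, 35 rose and 0 fell with that library (5.12% of all genes were called higher), with a median log2 difference of 3.48. Without it 16 rose and 0 fell (3.69% of all genes), with a median of 1.21. All 16 were also called with KO library 3, and they were Isg15, Ifit1, Ifit3, Mx2, Oas2, Oas3, Oasl2, Rsad2, Usp18, Ifi35, Zbp1, Rtp4, Xaf1, Parp9, Parp14 and Ddx58. The summed level was 991 to 1374 CPM in WT, 1982 and 2502 CPM in KO libraries 1 and 2 and 21162 CPM in KO library 3. The 3 WT libraries mattered too, with 15 genes called without WT library 1, 11 without WT library 2 and 28 without WT library 3. The fit of 6 libraries called 1 of the 38 and the fit of 9 resting libraries 5. With KO library 3 left out, the 6-library fit called 29.

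Oas2, which makes the second messenger of the RNase L pathway, was at 3.22, 2.94 and 6.87 CPM in WT (chr5:120730333-120749853, minus strand) and 20.9, 15.2 and 98.5 CPM in KO. Each KO library was above each WT library, with a log2 difference of 3.38 ± 0.57 (adjusted p = 0.00271) and of 2.1 ± 0.31 (adjusted p = 0.00153) without KO library 3. Ifit1, which binds viral RNA caps, was at 4.80, 4.89 and 18.1 CPM in WT and 55.5, 32.8 and 883 CPM in KO, beside 714, 309.9 and 1549 CPM in the LPS-treated WT libraries. KO library 3 lay inside the LPS range while KO libraries 1 and 2 lay between it and the resting WT libraries. The log2 difference was 5.15 ± 1.05 (adjusted p = 0.00692), and 2.30 ± 0.57 (adjusted p = 0.0232) without KO library 3. Isg15, a ubiquitin-like protein, was at 4.07, 4.22 and 6.19 CPM in WT and 19.9, 14.2 and 455 CPM in KO, so that the fold over WT was 33.9 with and 3.59 without KO library 3. Mx1, an antiviral GTPase, was at 2.04, 1.81 and 8.51 CPM in WT and 24.7, 16 and 922 CPM in KO and was called only with KO library 3 (6.34 ± 1.36, adjusted p = 0.00886, against 2.39 ± 0.72, adjusted p = 0.0554). Ifit3 was called in both fits, and Ifit3b, a near-identical copy, only with KO library 3. Reads that fit both were dropped by the mapping quality filter of the counting, so the level of each is uncertain.

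The transcription factors that carry the interferon signal gave 6 higher and 0 lower calls among 15 tested (Irf1, Irf5, Irf7, Irf9 and Stat2 among them), and 3 higher without KO library 3 (Irf1, Irf7 and Irf9), as many as without WT library 1 or 2. The fits of 6 and 9 libraries called 1 and 2 of them, and the 6-library fit without KO library 3 called 6. Irf7, the factor that amplifies type I interferon, was at 7.16, 8.36 and 17.1 CPM in WT (chr7:141262706-141266481, minus strand), 48.8 and 32 CPM in KO libraries 1 and 2 and 815 CPM in KO library 3. All KO libraries were above WT, by 4.79 ± 0.94 (adjusted p = 0.00552) on the log2 scale and by 1.92 ± 0.38 (adjusted p = 0.00734) without KO library 3. Irf9, the DNA-binding partner of Stat2, was at 29.6, 34.6 and 39.8 CPM in WT and 62.5, 56.5 and 116 CPM in KO (1.17 ± 0.20, adjusted p = 0.00288, and 0.78 ± 0.12, adjusted p = 0.00215 without KO library 3). Irf1, which both interferon and NF-κB induce, was at 41.6, 38.2 and 50.6 CPM in WT and 105, 95.2 and 154 CPM in KO, without overlap. Of the 10 genes for interferons, their receptors and receptor kinases that were tested, 0 were called with KO library 3 and 1 was higher without it.

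GBP and IRG proteins are GTPases that attack the vacuoles of intracellular pathogens. Of 16 tested, 12 rose with KO library 3 (median log2 difference 4.08) and 4 without it (median 1.37), namely Gbp2, Gbp3, Gbp5 and Ifi47, and 0 fell. Calls came to 4 without WT library 1, 2 without WT library 2 and 8 without WT library 3, to 0 and 1 in the fits of 6 and 9 libraries and to 5 with limma-voom and quality weights. Leaving KO library 3 out of the 6-library fit gave 8. Over all genes 5.12% were called higher, or 3.69% without KO library 3. The summed level was 91.3 to 169 CPM in WT, 284 and 339.5 CPM in KO libraries 1 and 2 and 4139.9 CPM in KO library 3. Gbp2b, a close copy of Gbp2, went its own way in each KO library, at 0.742, 24.2 and 386 CPM against 0, 0 and 0.870 CPM in WT and at most 0.513 CPM in LPS-treated WT libraries. In LPS-treated KO libraries it was at 0.758, 659 and 539.6 CPM. KO library 1 thus lay at the level of WT and KO libraries 2 and 3 far above it, and reads dropped because they also fit Gbp2 make its level uncertain.

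The sensors of foreign nucleic acid and the Ifi200 family gave 11 higher calls of 17 with KO library 3 and 1 (Ifi204) without it, 2 without WT library 1 and 0 without WT library 2. The Schlafen family gave 4 of 7 (Slfn1, Slfn2, Slfn4 and Slfn5) and 1 (Slfn5) without KO library 3, 1 also without WT library 1 or 2 and 2 without WT library 3. Both lists hold clusters of similar genes that can lose reads fitting several copies. Class I antigen processing and presentation gave 11 of 23 (median 1.44), and 4 without KO library 3 (H2-K1, H2-Q4, H2-Q6 and H2-T24, median 0.36). Class I calls came to 4, 3 and 5 without WT library 1, 2 or 3, and to 18 and 19 without KO library 1 or 2. In these 3 lists 0 genes were called lower either way, and the fits of 6 and 9 libraries called 0 genes of the first and second and 0 and 1 of class I. With KO library 3 left out, the 6-library fit called 8, 2 and 8 genes of the 3 lists in turn. The summed level of the class I list was 4118 to 4651 CPM in WT, 5608 and 5868 CPM in KO libraries 1 and 2 and 12331 CPM in KO library 3. H2-Q6 has close copies in the Q region, so its level is uncertain.

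The motif of interferon-stimulated response elements was frequent in these promoters, again counted over whole lists unless stated. GAAANNGAA, searched on both strands, was found in 16 of 28 antiviral genes with a RefSeq promoter (57.1%), in 10 of 11 GBP and IRG genes (90.9%), in 10.5% of mitosis genes and in 9.07% of all 8904 genes. Of the 9 antiviral genes called both ways that have a promoter entry, 6 held it (66.7%), and TTTGAA was found in 17.9% of the antiviral genes. The 120 bases before the start of Isg15 (chr4:156200819-156200938, minus strand, GRCm38.p6) and of Rsad2 (chr12:26456453-26456572, minus strand), the gene of viperin, are shown with the matches in capitals.
Isg15: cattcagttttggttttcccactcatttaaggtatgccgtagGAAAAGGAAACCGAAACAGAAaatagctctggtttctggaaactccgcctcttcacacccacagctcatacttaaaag
Rsad2: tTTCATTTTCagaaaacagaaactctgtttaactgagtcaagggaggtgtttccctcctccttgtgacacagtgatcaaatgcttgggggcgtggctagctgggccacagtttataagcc

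**Figure D4:**
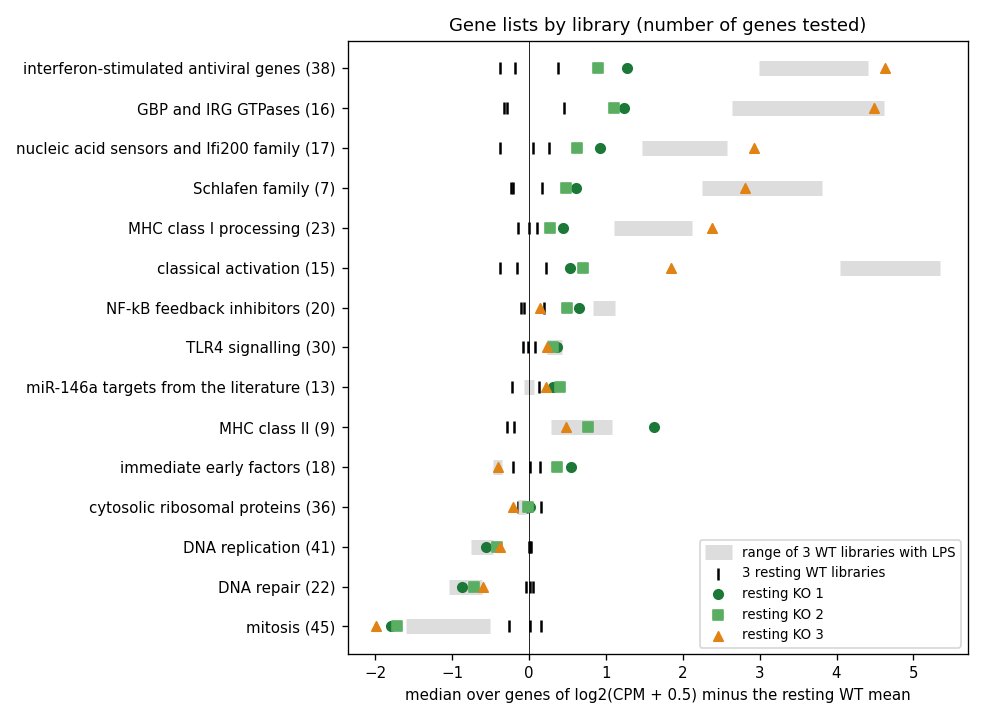
For 15 gene lists, the x axis gives the median over the genes of log2(CPM + 0.5) minus the mean of the resting WT libraries, for 3 resting WT libraries (black ticks), resting KO libraries 1, 2 and 3 (circle, square, triangle) and the range of 3 LPS-treated WT libraries (grey bar). All KO symbols of the mitosis list lie together below WT, KO library 3 reaches the grey bar or passes it in the antiviral, GBP, Ifi200, Schlafen and class I lists, and in the classical activation list it stays below the bar.

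Of 9 genes of class II presentation tested 2 rose (Cd74 and H2-Ab1) and 4 rose without KO library 3 (also H2-Aa and H2-Eb1), with medians of 1.18 and 1.49, and 0 fell. Cd74, the invariant chain, was at 8.87, 13.8 and 25 CPM in WT and 70, 46.8 and 47.7 CPM in KO (1.8 ± 0.34, adjusted p = 0.00445, and 1.90 ± 0.36, adjusted p = 0.00688 without KO library 3). H2-Ab1 was at 6.96, 4.82 and 13 CPM in WT and 30.9, 19.7 and 15 CPM in KO, where KO library 3 was the lowest but still above WT (1.44 ± 0.33, adjusted p = 0.0123, and 1.65 ± 0.33, adjusted p = 0.00836 without KO library 3). Calls came to 1 of 9 when WT library 1, WT library 2 or KO library 1 was left out, to 3 without WT library 3 or KO library 2, and to 1 in the fits of 6 and of 9 libraries. The 6-library fit without KO library 3 called 4. The summed level of the list overlapped between the genotypes, at 3797 to 4846 CPM in WT and 4694 to 5342 CPM in KO. Cd74 and H2-Ab1 were a small part of that sum, so its overlap does not describe them. Of 10 costimulatory genes tested, 0 were called with KO library 3 and 1 was higher without it.

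Inflammatory cytokines gave 5 higher and 0 lower calls among 17 tested (median log2 difference 1.17), and 2 higher without KO library 3 (Tnf and Tnfsf15, median 0.87). Tnf was at 37.4, 45.3 and 60.2 CPM in WT and 97.9, 84.3 and 71.5 CPM in KO, without overlap (0.83 ± 0.21, adjusted p = 0.0193, and 0.94 ± 0.22, adjusted p = 0.0173 without KO library 3). Il18, Il27 and Tnfsf10 were called only with KO library 3, and 1 of the 17 was called when WT library 1 or WT library 2 was left out and 3 when WT library 3 was. The fits of 6 and of 9 libraries called 0 of them, and the 6-library fit without KO library 3 called 4. Over all genes 5.12% (3.69% without KO library 3) were called higher. Chemokines gave 4 higher and 0 lower of 19 with KO library 3 (median 0.98) and 4 higher and 1 lower without it (median 0.63). Cxcl16, a membrane-bound chemokine, was at 151, 121 and 179.9 CPM in WT and 305, 266 and 278 CPM in KO, a narrow increase without overlap (0.91 ± 0.14, adjusted p = 0.00162, and 0.92 ± 0.15, adjusted p = 0.00299 without KO library 3). Ccl24, an eosinophil attractant, was at 0.263, 0.376 and 0.677 CPM in WT and 3.71, 1.84 and 3.93 CPM in KO. Cxcl10, an interferon-induced attractant of T cells, was at 1.12, 2.33 and 5.61 CPM in WT and 24, 12.2 and 196 CPM in KO (4.73 ± 0.98, adjusted p = 0.0078, and 2.67 ± 0.71, adjusted p = 0.0335 without KO library 3). Ccl2, the monocyte attractant, was at 94.3, 88.9 and 80.1 CPM in WT, 32.9 and 26.2 CPM in KO libraries 1 and 2 and 123 CPM in KO library 3, and it was called lower only without that library (-1.57 ± 0.31, adjusted p = 0.00734). Cxcl2, a neutrophil attractant, had the opposite arrangement, with 37.2, 28.8 and 58.8 CPM in WT, 138 and 77 CPM in KO libraries 1 and 2 and 20 CPM in KO library 3. It was called higher only without that library (1.37 ± 0.32, adjusted p = 0.017).

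Receptors for chemoattractants gave 3 higher and 0 lower calls among 11 tested, with and without KO library 3, and Fpr1 and Fpr2 were among those called both ways. Fpr2, a receptor of formylated peptides, was at 1.25, 1.20 and 5.03 CPM in WT (chr17:17887824-17893952, plus strand) and 15.1, 17.1 and 72.2 CPM in KO. The KO libraries were all above WT, with KO library 3 the highest, and the log2 difference was 3.86 ± 0.58 (adjusted p = 0.00155) and 2.79 ± 0.37 (adjusted p = 0.000741) without KO library 3.

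Of 15 genes of classical activation, 6 rose and 0 fell (median 1.27), and Acod1, Ptges, Fpr2, Sod2 and Clec4e also rose without KO library 3 (median 0.75), while Saa3 was called only with it. The fits of 6 and 9 libraries called 1 and 3, and the 6-library fit without KO library 3 called 5. Acod1, the enzyme that makes itaconate, was at 38.6, 26.2 and 65.9 CPM in WT (chr14:103046977-103056573, plus strand) and 203, 142 and 1139 CPM in KO (3.51 ± 0.60, adjusted p = 0.00271, and 1.99 ± 0.30, adjusted p = 0.0017 without KO library 3). Sod2, the mitochondrial superoxide dismutase, was at 189.5, 131 and 188 CPM in WT and 335, 318 and 572 CPM in KO. Clec4e, a receptor of mycobacterial glycolipid, was at 352, 237 and 373 CPM in WT and 633, 521 and 1308 CPM in KO, below the 5323, 5649 and 6025 CPM of the LPS-treated WT libraries. The genotypes did not overlap for Acod1, Sod2 or Clec4e. Of 18 immediate early factors, 1 (Ier3) was higher with KO library 3 and 4 without it, Junb, Egr1 and Ier2 among them. Alternative activation gave 2 higher calls of 12 (Ccl24 and Tgm2), and without KO library 3 also Mgl2.

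Genes for the uptake of dying cells and for scavenging gave 3 higher (Axl, Timd4 and Siglec1) and 1 lower (Mfge8) of 24, and 5 higher and 0 lower without KO library 3. Over all genes 5.12% were called higher and 4.27% lower. Without WT library 1 the list had 2 calls, without WT library 2 it had 1, and in the fits of 6 and 9 libraries it had 0. Leaving KO library 3 out of the 6-library fit gave 8. Siglec1, which binds sialylated particles and which interferon induces, was at 40.4, 61 and 66.4 CPM in WT and 144, 118 and 312 CPM in KO (1.77 ± 0.36, adjusted p = 0.00721, and 1.23 ± 0.31, adjusted p = 0.0238 without KO library 3). Mfge8, a bridge to phosphatidylserine, was at 226, 222 and 201 CPM in WT and 92.2, 145 and 81.3 CPM in KO, lower without overlap, but was called only with KO library 3 (-1.03 ± 0.25, adjusted p = 0.0158, against -0.87 ± 0.26, adjusted p = 0.056). The complement list gave 2 higher of 12 (C3 and C1ra), 3 without KO library 3 (C3, C1qb and C1qc) and 1 without WT library 1, 2 or 3. C3, the central component, was at 21.5, 16.3 and 31.2 CPM in WT and 73.9, 65.3 and 319 CPM in KO. Inflammasome genes gave 5 higher of 14, and 3 higher and 1 lower without KO library 3. They had 1 call without WT library 1 or 2, 3 without WT library 3 and 0 in the fits of 6 and 9 libraries. The 6-library fit without KO library 3 called 5. Nlrc4, a sensor component of bacterial flagellin, was at 16.3, 16.7 and 15.3 CPM in WT and 26.1, 25 and 21.8 CPM in KO, a small increase of 0.60 ± 0.13 (adjusted p = 0.00854), or 0.67 ± 0.13 (adjusted p = 0.00836) without KO library 3, with tight replicates. Csf1r, the receptor of M-CSF, was at 1443, 1848 and 1941 CPM in WT and 3255, 3101 and 2786 CPM in KO (0.81 ± 0.18, adjusted p = 0.0122, and 0.87 ± 0.20, adjusted p = 0.0156 without KO library 3), with every KO library above WT.

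Metabolic and housekeeping lists gave 0 to 4 calls each. Over all genes 5.12% were called higher and 4.27% lower, or 3.69% and 3.49% without KO library 3. Of 36 cytosolic ribosomal protein genes 0 were called either way (median -0.08 and, without KO library 3, 0.00), and of 26 genes of oxidative phosphorylation also 0 (median -0.14 and -0.24). Glycolysis gave 4 higher of 18 (Hk2, Pfkl, Slc2a1 and Slc16a3), of which Hk2 was called both ways, and 2 lower (Hk3 and Pfkp) without KO library 3. Hk2, the inducible hexokinase, was at 93.1, 84.1 and 83.7 CPM in WT and 136, 128 and 219.7 CPM in KO (0.89 ± 0.17, adjusted p = 0.00427, and 0.60 ± 0.12, adjusted p = 0.00705 without KO library 3). Cholesterol synthesis gave 3 lower of 21 (Idi1, Lss and Nsdhl), and Lss was also called without KO library 3. Glycolysis had 2 calls without WT library 1 and 1 without WT library 2, and cholesterol synthesis had 0 without either. The lysosome list gave 1 lower of 21, the NRF2 targets 1 higher of 10 (Nqo1), which was lost without KO library 3, WT library 1 or WT library 2, and the unfolded protein response 0 of 11, or 2 lower (Trib3 and Asns) without KO library 3. Cholesterol efflux gave 2 higher of 10 (Ch25h and Nr1h3), neither of them called without KO library 3, where Abca1 was the 1 higher gene, and 0 without WT library 1 or 2. The Fcγ receptors gave 1 of 5 (Fcgr1), called only with KO library 3.

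The genes with the largest differences called both ways came from no single list. Rasgrp1, an activator of Ras, was at 0.0657, 0.0753 and 0.387 CPM in WT (chr2:117279993-117343001, minus strand) and 2.53, 2.06 and 12.5 CPM in KO. In the LPS-treated libraries it was at 21.2, 21.4 and 37.8 CPM in WT and 111, 132 and 116 CPM in KO. Gm14085, a predicted gene, was at 0.131, 0.301 and 0.290 CPM in WT (chr2:122484941-122528040, plus strand), 5.93, 5.35 and 27.7 CPM in KO and 37.7, 39.5 and 38.1 CPM in LPS-treated KO libraries, while LPS-treated WT libraries stayed at 0.628, 0.273 and 0.880 CPM. It was thus near 0 in WT in both conditions. Lrrc27 fell from 48, 50.4 and 43.5 CPM in WT to 19.9, 2.83 and 3.37 CPM in KO (-2.39 ± 0.49, adjusted p = 0.00731, and -2.03 ± 0.47, adjusted p = 0.0167 without KO library 3), with KO library 1 between the others and WT. Mns1, known from cilia and sperm, fell from 5.45, 7.61 and 4.64 to 0.309, 1.45 and 0.112 CPM (-3.17 ± 0.63, adjusted p = 0.00602, and -2.80 ± 0.63, adjusted p = 0.0145 without KO library 3), and Pde1c, a phosphodiesterase, from 3.61, 3.16 and 10.7 to 0.927, 1.45 and 0.449 CPM (-2.55 ± 0.58, adjusted p = 0.0122, and -2.28 ± 0.62, adjusted p = 0.0357 without KO library 3).

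Some genes were called in 1 of the fits only. The higher genes with the largest differences called only with it were Gbp2b, Slfn1, Ifit1bl1, Ifi213 and Mx1, and the lower ones were Bace1, a secretase, and the histone genes Hist1h3g, Hist1h2bk, Hist1h2bb and Hist1h3b, which have near-identical copies, so that their levels are uncertain. Called only without it were, as higher genes, Mgl2, Hpgd, H2-Eb1, Fcrls and H2-Aa, and as lower genes Trim30d, Gvin1, Cd24a, Dppa3 and Kif5c. Fcrls, an Fc receptor-like protein, was at 33.4, 23.8 and 35 CPM in WT and 100.1, 73.1 and 10.7 CPM in KO, with KO library 3 under the WT range (1.5 ± 0.23, adjusted p = 0.00186 without it). Cd24a, a surface glycoprotein, was at 25.6, 55.6 and 22.8 CPM in WT and 5.56, 8.49 and 25.6 CPM in KO, with KO library 3 inside the WT range (-2.32 ± 0.43, adjusted p = 0.00525).

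Some genes were at the counting floor, at most 3 counts per library, in every library of 1 genotype. There were 20 such called genes, and a fitted fold is no bound for them, so folds are given against 3 counts per library. Plekha7, a junction protein, was at 0.0657, 0 and 0.0967 CPM in WT (chr7:116123485-116308376, minus strand) and 8.10, 7.11 and 10.1 CPM in KO, at least 35.5-fold higher with and 32-fold higher without KO library 3. Ptprd, a receptor phosphatase, was at 0 CPM in KO library 1, 11.5 CPM in KO library 2 and 6.18 CPM in KO library 3, so it was high in only a part of the KO libraries. Timd4, a receptor for phosphatidylserine, was at 0, 0 and 0.0967 CPM in WT and 1.05, 0.535 and 4.04 CPM in KO, at least 7.89-fold higher with and 3.34-fold higher without KO library 3. Kif21a, a kinesin, was at 7.69, 6.25 and 0.0967 CPM in WT and 0.0618, 0.153 and 0.112 CPM in KO, at least 18.7-fold lower with and 22.5-fold lower without KO library 3, and WT library 3 was at the level of KO.

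Trim genes of chromosome 7, a cluster of E3 ligases of which several restrain retroviruses, changed in both directions. Trim12a was at 14.2, 11.9 and 13.1 CPM in WT (chr7:104299894-104315466, minus strand) and at 0 CPM in all 3 KO libraries, at least 52.1-fold lower with and 62.9-fold lower without KO library 3. Trim5 was at 4.73, 2.94 and 3.67 CPM in WT (chr7:104263386-104288094, minus strand) and 0, 0 and 0.112 CPM in KO, at least 15.1-fold lower with and 18.2-fold lower without KO library 3, and Trim34b was at 0.0657, 0.151 and 0.0967 CPM in WT and 5.32, 4.59 and 19.5 CPM in KO, at least 41.3-fold higher with and 20.8-fold higher without KO library 3. These 3 genes separated the genotypes completely, KO library 3 included. Trim12c, a copy of Trim12a, was higher in KO, at 13.7, 12.3 and 12.4 CPM in WT against 22.7, 17 and 38.2 CPM in KO (1.01 ± 0.23, adjusted p = 0.0123, and 0.64 ± 0.18, adjusted p = 0.0421 without KO library 3). Trim30c was higher as well, at 0.394, 0.753 and 0.580 CPM against 4.33, 3.44 and 21.4 CPM (4.01 ± 0.88, adjusted p = 0.00967, and 2.76 ± 0.78, adjusted p = 0.0448 without KO library 3). Trim30d was at 6.04, 9.49 and 12 CPM in WT, 1.05 and 0.841 CPM in KO libraries 1 and 2 and 34.6 CPM in KO library 3, and Trim34a was at 15.4, 14.1 and 16.9 CPM in WT and 5.63, 4.43 and 16.4 CPM in KO. Both were called lower only without KO library 3 (-3.23 ± 0.44, adjusted p = 0.000744 and -1.61 ± 0.25, adjusted p = 0.00197). Of the 12 genes tested, 5 were higher and 2 lower with KO library 3, and 3 higher and 4 lower without it, and 4 were called without WT library 1 or WT library 2. These genes are near-identical copies of each other in part, and reads that fit several of them were dropped, so the level of each is uncertain.

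**Figure D5:**
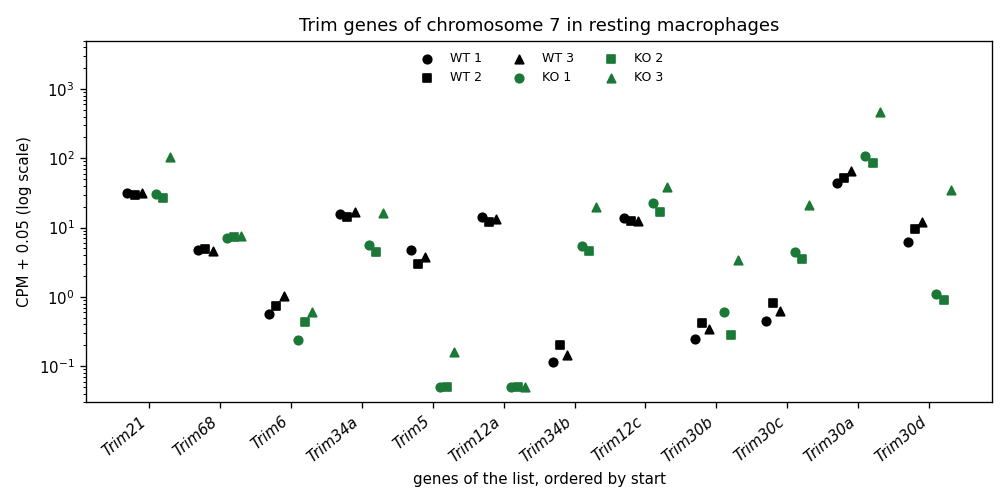
The 12 tested Trim genes of chromosome 7 are ordered by start position along the x axis, with CPM + 0.05 on a log y axis for resting WT (black) and KO (green) libraries 1, 2 and 3 (circle, square, triangle). Trim5 and Trim12a sit at the bottom in all KO libraries and Trim34b in all WT libraries, while Trim30d and Trim34a show KO libraries 1 and 2 below WT and KO library 3 at or above it.

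At the targeted locus itself, 12 genes of the annotation lie within 1000000 bases of miR-146a, of which 4 were tested (Slu7, Pttg1, Ttc1 and Pwwp2a), and 0 were called. The share of called genes per autosome ran from 5.97% on chromosome 8 to 13.5% on chromosome 19, beside 9.40% over all genes, and it was 10.9% on chromosome 7. The 4 sex-linked genes listed as a check of the sexes (Ddx3y, Kdm5d, Eif2s3y and Uty) are Y-linked. They summed to 296 to 332 CPM in WT and 254 to 347 CPM in KO, so every library held Y-linked messages. Of these 4 genes 0 were called, and of 5 genes tested on the Y chromosome, 0 were called.

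Of 520 tested genes with AGTTCTCA, 29 were higher (5.58%) and 16 lower (3.08%), with a median log2 difference of 0.00. Of 7485 tested genes with no site down to the 6 letters GTTCTC, 381 were higher (5.09%) and 342 lower (4.57%), with a median of 0.01. Genes with a site of 7 letters (AGTTCTC or GTTCTCA) gave 4.10% higher and 3.54% lower, and genes with only the 6 letters 6.36% and 3.73%. Without KO library 3, genes with AGTTCTCA gave 4.42% higher and 2.88% lower, beside 3.27% and 2.60% of genes with 7 letters, 3.25% and 3.46% of genes with only the 6 letters and 3.82% and 3.70% of genes with no site. The classes were described and not tested.

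There were 17 genes with AGTTCTCA called higher both ways, namely Hk2, Prdm15, Nuak1, Acod1, Slco3a1, Notch1, Itga4, Cers6, Btg1, Tgm2, Tmem150a, Gda, Irak2, Rnf213, Rnls, Ppp1r12b and Gm14085. The sites of Acod1 (chr14:103056240-103056267), Gm14085 (chr2:122527456-122527483), Itga4 (chr2:79330804-79330831) and Btg1 (chr10:96619036-96619063), all on the plus strand, are shown as members outside the listed targets. A match in a UTR describes letters and is no evidence that the microRNA binds there.
Acod1: ccagcaagaatatatcAGTTCTCAgttc
Gm14085: tgggccgctccaagacAGTTCTCAtaga
Itga4: tgattctcaggaatctAGTTCTCAgggg
Btg1: cactattacacttgaaAGTTCTCAgtaa

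Markers of other cells that marrow cultures could hold were checked beside these results. The 7 monocyte markers tested rose in 4 cases (Ly6c2, F13a1, Vcan and Hp), and in 2 without KO library 3 (F13a1 and Vcan), with 2 calls without WT library 1, 1 without WT library 2 and a summed level of 45.6 to 68.1 CPM in WT and 128 to 369 CPM in KO. Vcan, a matrix proteoglycan of inflammatory monocytes, was at 7.69, 12.8 and 18.7 CPM in WT and 38.7, 37.9 and 148 CPM in KO. Of 8 neutrophil markers tested, Mmp8 was higher both ways and 0 were called lower. In 2 of the 8 the log2 difference was below 0, at lowest -2.57, or -2.20 without KO library 3. Ly6g was at 0 in all 6 libraries, and the sum was 61.7 to 83.4 CPM in WT and 109 to 144 CPM in KO. Itgax, the CD11c integrin chain that macrophages share with dendritic cells, was at 39.2, 46.5 and 59.5 CPM in WT and 107, 154 and 78.3 CPM in KO (1.23 ± 0.29, adjusted p = 0.0151, and 1.43 ± 0.29, adjusted p = 0.00825 without KO library 3), while the dendritic cell markers Flt3, Xcr1 and Clec9a were at 0.449 CPM or less. Markers of T and NK cells summed to 11 CPM or less, those of B cells to 0.612 CPM or less, and 0 of them were called, nor were any of mast cells, stroma or progenitors. The erythroid and megakaryocyte list, most of it Pf4, summed to 340.0 to 494 CPM in WT and 112 to 338 CPM in KO, with 0 calls. Of 7 osteoclast markers tested, Dcstamp, a fusion protein, was lower both ways, at 14.9, 7.76 and 16.5 CPM in WT and 4.76, 4.59 and 0.898 CPM in KO. The part that cell composition had in the results was not tested.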

How the data were processed

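RNA was sequenced from 18 libraries of bone marrow-derived macrophages in 6 groups of 3, namely WT, KO and 3′F, each resting and LPS-treated. The authors trimmed reads with cutadapt 1.8.3, removed ribosomal DNA reads and aligned the rest to mm10 with HISAT2 2.1.0, and they deposited raw counts per Gencode M15 gene from featureCounts 1.5.3, strand-specific and with a mapping quality filter that drops reads fitting several copies of a gene. The deposited counts table has 0 columns of other samples. It also holds a gene length column, not used here.

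Counts of all 18 libraries were fitted per group with edgeR 4.0.16 (R 4.3.3) after filterByExpr (11357 of 21734 genes) and TMM scaling, and the resting KO and WT groups were contrasted with the quasi-likelihood test and Benjamini-Hochberg adjustment at 0.05. Errors beside log2 differences are standard errors. Over 3 against 3 libraries an exact permutation test of 1 gene cannot go below 0.1, so none was used. DESeq2 1.42.0, limma 3.58.1 with quality weights, other filters and scaling, smaller fits, a replicate block and leaving out each library were alternatives. The scripts were tested on simulated data. Same-numbered resting WT and KO libraries were not paired, since the correlations of their deviations were -0.0121, 0.0361 and 0.0811. Pairing of resting with LPS-treated libraries of the same genotype and number was not examined. The fit over 18 libraries took these as independent, which they may not be.

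Members of 49 gene lists, the lists and the tests were chosen with earlier results of these data known. Genes named in the text are Irak1 and Traf6, those with the largest differences at an average log2 CPM of at least 1 among genes called with and without KO library 3 (up to 10 per direction, not overlapping) or in 1 fit only (up to 5 per direction), and in each list the 3 smallest adjusted p, the highest member and the members called where these are few. Other members given with their values were chosen after their values were seen. Figures show log2(CPM + 0.5) where a log scale is used for lists. Coordinates are those of GENCODE on GRCm38 (21679 of the gene IDs found, 55 not), and microRNAs and promoters are from RefSeq, GRCm38.p6. Some genes are not reported here.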

Additional observations from a re-analysis of the deposited data

Results flagged for a closer look

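In 1 gene, Clmp, a cell adhesion protein, the genotype difference at rest differed from that with LPS by a test of the difference itself. Clmp was at 2.69, 1.96 and 3.19 CPM in resting WT and 17.7, 11.2 and 10.3 CPM in resting KO libraries, and with LPS at 37.8, 40.9 and 38.0 CPM in WT and 51.9, 58.9 and 46.1 CPM in KO. The log2 difference KO minus WT was 2.35 ± 0.21 at rest and 0.43 ± 0.17 with LPS (adjusted p = 1.43e-05 and 0.192), and the difference between them was 1.92 ± 0.28 (adjusted p = 0.0369, edgeR). It was the only gene of 11357 called in that test (0.00881%), beside 560 genes at an unadjusted p under 0.05, and DESeq2 called 15. That test took resting and LPS-treated libraries of a genotype as independent, which was not examined. With any 1 of the WT libraries, resting or LPS-treated, left out, or with KO LPS library 2 or 3 left out, 0 genes were called.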

How the results depend on the processing

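DESeq2 size factors, no filter and a stricter filter gave 1062, 985 and 1075 calls and DESeq2 gave 1482, beside 1067, and in every alternative fit 0 genes called with all libraries changed direction while called. Limma-voom with quality weights called 2259 genes (1085 higher, 1174 lower), of which 948 were shared with the 1067, and the fits of 6 and of 9 resting libraries called 380 (120 higher, 260 lower) and 329 (123 higher, 206 lower), so 54.5% of calls were higher in the fit over 18 libraries and 31.6%, 37.4% and 48.0% in these 6-library, 9-library and voom fits. With KO library 3 left out, the 6-library fit called 1073 (515 higher, 558 lower). Leaving out 1 library gave 401 to 1047 calls, 193 to 629 higher and 208 to 418 lower. Without WT library 1 there were 590 calls, without WT library 2 there were 401, and without WT library 3 there were 718. The calls of the genotype by LPS test ranged from 0 to 4 with 1 library left out and came to 15 with DESeq2. With a replicate block 963 genes were called, and the numbers did not pair resting WT with resting KO libraries. Trim30d, at a log2 difference of 0.32 with all libraries, ranged from -3.23 (without KO library 3) to 0.92 (without KO library 1) with 1 library left out and was at -3.18 with voom and quality weights and -3.25 in the fits of the compared libraries and of DESeq2 without it. The causes were not tested. Depth limits genes under 3 counts per library, for which only bounds are given.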
